A study of Homo sapiens with 4 samples.

Results

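The BCL2 family sets whether a cell keeps its mitochondrial outer membrane intact or opens it and enters apoptosis. Anti-apoptotic members such as BCL2, BCL-XL and MCL1 hold the pore-forming proteins BAX and BAK in check. BH3-only proteins, each carrying a short helix that fits the groove of the anti-apoptotic members, tip that balance towards permeabilisation. Breast cancer cells of the luminal type are known to lean on anti-apoptotic members for survival, and BCL2 itself is an estrogen-responsive gene there.

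Described here are 10 genes of the family, taken by name: BCL2, BCL2L1, MCL1, BAX, BAK1, BID, BBC3, PMAIP1, BCL2L11 and BMF. Their members on the array were the probesets whose platform annotation gives exactly 1 of these symbols, 119 of the 232479 probesets in the deposited table, and the 10 genes stood among 16543 named by a single symbol. Each probeset is a handful of probes lying within 1 stretch of a transcript, often a single exon. The rule reads gene symbols only.

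RNA came from T-47D, an established luminal breast cancer cell line that carries hormone receptors, grown in DMEM with serum and transfected with the TurboFect reagent. The mimic group of 2 arrays was from cells given the artificial microRNA p-27-5p as a mimic at 200 nM. The negative control group of 2 arrays was from cells given a pre-miR negative control, whose dose the labels do not state separately. The labels name no time between transfection and RNA extraction. Separate cultures are not stated for the 2 arrays of a group, so the spread behind every p-value is that between arrays and may be technical only. The series' design text calls mimic and control samples paired, without saying what a pair shares. The main comparison does not use the pairs, and a replicate block is given as an alternative. The comparison asks which family members differ in transcript level between cells given the mimic and cells given the control.

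All levels are on the log2 scale, so a difference of 1 is a doubling. A gene's level is the mean of its brighter probesets, those averaging 4.08 or more across the 4 arrays; 4.08 is the 25th percentile of all deposited values. That filter kept 91 of the 119 member probesets, and all 10 genes kept at least 5 of theirs. Differences are mimic minus control with the standard error (SE) of limma's moderated fit, and a gene passed at a Benjamini-Hochberg adjusted p under 0.05 over all 15719 genes tested. Probes of different genes bind with different strength, so the level of 1 gene is not set against that of another. The exception is a rough gauge of little signal, given by genes of liver and neurons.

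Arrays of a group correlated with r of 0.985 (mimic) and 0.984 (control) over all probesets, and r lay between 0.966 and 0.973 across groups. The 10 luminal markers had mimic levels of 6.54 to 12.14 and control levels of 6.43 to 12.40, and none passed the test. The 11 tested genes of liver and neurons, used as a gauge of the level with little signal, had a median of 4.92 and a highest level of 5.92 in mimic arrays, against 4.90 and 5.71 in control arrays. All marker levels here rest on probesets past the filter, which sets a floor under them. Without the filter the median of 14 liver and neuron genes was 3.72 in mimic and 3.65 in control arrays. The medians of 8 leukocyte and 10 fibroblast markers were 5.38 and 5.05 in mimic arrays and 5.43 and 4.73 in control arrays, and limma called none of them. At an unadjusted p under 0.05 limma had the luminal markers ESR1 (-0.42), PGR (-0.60) and KRT19 (-0.48) lower, and the leukocyte marker CD14 (0.46), the fibroblast markers LUM (0.80) and FAP (0.77) and the liver genes FGA (0.50) and TAT (0.53) higher. All 10 fibroblast markers had a difference above 0, with a median of 0.22. The median difference was 0.13 for the leukocyte markers, with 5 of 8 above 0, and 0.15 for the liver and neuron genes, with 8 of 11. For the luminal markers it was -0.12, with 3 of 10 above 0. The part of these shifts in the results below was not tested. In RNA from a whole culture, fewer cells of a kind and less RNA per cell cannot be told apart.

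The promoters of the members with the largest and the next largest increase, PMAIP1 and BCL2L11, are shown as the 250 bases before the annotated start in RefSeq's GRCh38.p14 annotation. PMAIP1 lies at chr18:59899746-59899995 and BCL2L11 at chr2:111120664-111120913, both on the plus strand. Capitals mark the only match to a searched motif in either window.
PMAIP1: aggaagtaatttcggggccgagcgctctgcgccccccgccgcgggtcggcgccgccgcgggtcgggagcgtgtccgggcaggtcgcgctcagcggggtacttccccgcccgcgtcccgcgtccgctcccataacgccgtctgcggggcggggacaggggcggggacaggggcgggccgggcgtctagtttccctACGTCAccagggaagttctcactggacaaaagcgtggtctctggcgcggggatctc
BCL2L11: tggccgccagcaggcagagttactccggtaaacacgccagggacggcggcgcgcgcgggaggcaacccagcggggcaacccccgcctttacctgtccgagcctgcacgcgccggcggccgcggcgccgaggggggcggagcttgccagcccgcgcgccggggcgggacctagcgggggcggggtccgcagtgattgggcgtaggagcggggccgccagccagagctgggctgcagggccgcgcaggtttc

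The search covered both strands of the 250 bases for 4 motifs, and no match to 1 motif overlapped a match to another in these 2 windows. Of the 10 members, 9 matched the RefSeq table, with 15 windows since some have several starts; MCL1 was not matched. The capitals are the core of the cAMP response element, TGACGT, read on the minus strand 56 to 51 bases before the start of PMAIP1, and PMAIP1 was the 1 member with it. That core stood in 7.1% of all 35116 promoter windows. The core of the interferon-stimulated response element, 2 copies of GAAA with any 2 bases between them, and TTCNNNGAA, that of the gamma-activated site bound by STAT factors, were in none of the 15 windows, against 3.02% and 6.57% of all windows. The kappa-B consensus was in 1 window, of BMF, against 9.96% of all. A match is a run of letters, not a shown binding site, and these windows end at the start.

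PMAIP1 was the 1 family member past the threshold. It encodes NOXA, a BH3-only protein that binds chiefly MCL1 and is known to be induced by p53 and by interferon signalling. Its gene level was 6.77 and 6.87 on the mimic arrays, against 4.94 and 4.96 on the control arrays. The groups lay far apart compared with the spread within them, with means of 6.82 ± 0.069 in mimic and 4.95 ± 0.015 in control arrays (SD, n = 2 each). PMAIP1 rose by 1.87 (SE 0.121, 95% confidence interval 1.57 to 2.17), a 3.65-fold higher level with a limma adjusted p of 0.00237. Only 0.681% of all genes tested had a higher change. It was past the threshold under all 14 alternatives, with changes of 1.77 to 2.56 and adjusted p of 1.3e-05 to 0.0263. Its control level lay within the range of the liver and neuron genes. Those genes had a median difference of 0.15, with 8 of 11 above 0, and the part of that shift in the PMAIP1 value was not tested.

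Of the 10 members limma called 1, against 2.31% of all genes: 1 rose and none fell, against 1.52% and 0.789% of all genes. At an unadjusted p under 0.05 there were 2 members against 20.4% of all genes, and both were higher, against 7.65% of all genes higher and 12.8% lower. Both mimic arrays lay above both control arrays for 3 members (20.5% of all genes) and below them for 3 (29.5%), and the groups overlapped for the remaining 4. The median change of the 10 was 0.01, beside 0.00 for all genes tested. As the members were chosen with earlier results of these data known, these counts are not an independent test against all genes.

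**Figure D1:**
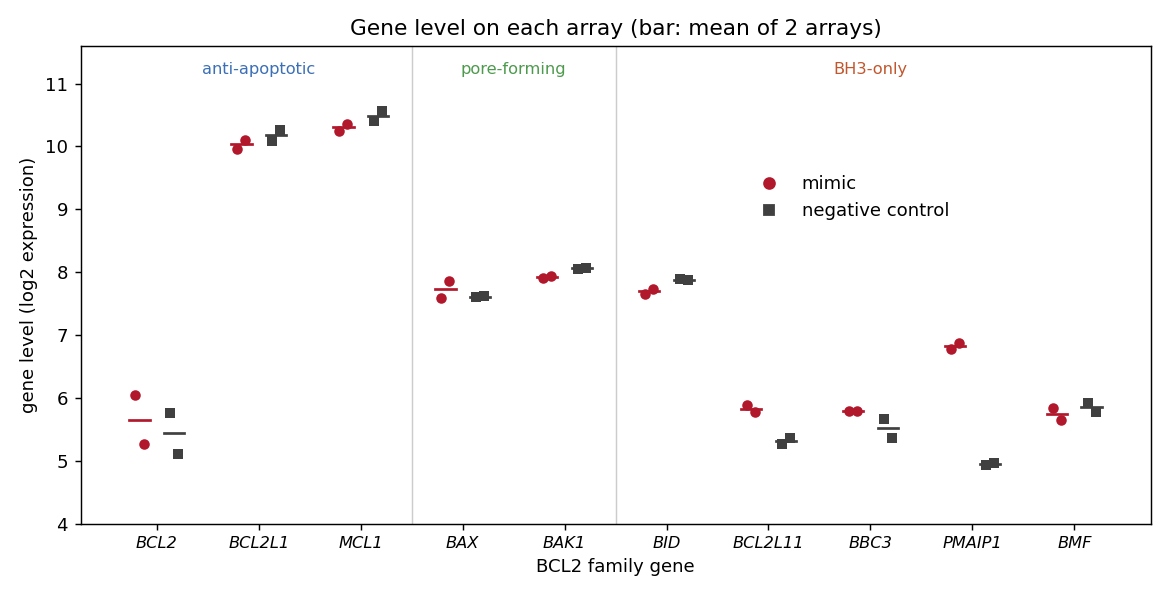
Gene level (log2 expression) of the 10 family members on each array, with mimic arrays (circles) left of control arrays (squares) and a bar at the mean of each pair. PMAIP1 sits at 6.77 and 6.87 on the mimic arrays and at 4.94 and 4.96 on the control arrays, while BCL2 varies more within each group than between them.

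Among the anti-apoptotic members no change passed the test. MCL1, the short-lived guardian that NOXA binds, had 10.24 and 10.36 on the mimic arrays, against 10.40 and 10.56 on the control arrays. The groups did not overlap, but the gap was small, with a difference of -0.18 (SE 0.132, interval -0.51 to 0.16, limma adjusted p = 0.515). BCL2L1, which encodes BCL-XL and by splicing the pro-apoptotic BCL-XS, had 9.96 and 10.10 on the mimic arrays, against 10.09 and 10.27 on the control arrays. Its groups overlapped, and the difference was -0.15 (SE 0.136, interval -0.49 to 0.20, adjusted p = 0.602).

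BCL2, the founding member, had the widest interval of the 10. Its level was 6.04 and 5.27 on the mimic arrays, against 5.76 and 5.10 on the control arrays, so the arrays of a group differed more than the groups did. The difference was 0.22 (SE 0.333, interval -0.62 to 1.06, limma adjusted p = 0.751). In both replicates, however, the mimic array lay above the same-numbered control array. With a replicate block the SE was 0.0835 (limma adjusted p = 0.177). The difference turned to -0.16 without mimic replicate 1 and to -0.11 without control replicate 2, each of which leaves an array without its same-numbered partner. It was -0.30 with the median of its probesets. Only 5 of its 17 probesets passed the filter, and its levels lay within or near those of the liver and neuron genes.

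The pore-forming members were likewise not called. BAX, which moves from the cytosol to mitochondria when activated, had 7.59 and 7.86 on the mimic arrays, against 7.60 and 7.62 on the control arrays, with overlapping groups. Its difference was 0.11 (SE 0.143, interval -0.25 to 0.47, limma adjusted p = 0.700), and it was -0.02 without mimic replicate 2. BAK1, whose protein BAK resides at mitochondria and is held by MCL1 and BCL-XL, had 7.90 and 7.94 on the mimic arrays, against 8.06 and 8.07 on the control arrays. Both mimic arrays were lower, at a difference of -0.15 (SE 0.117, interval -0.44 to 0.15, adjusted p = 0.546).

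Of the 5 BH3-only members, 4 did not pass. BCL2L11, which encodes BIM, a binder of all main anti-apoptotic members, had 5.88 and 5.77 on the mimic arrays, against 5.26 and 5.36 on the control arrays. Both mimic arrays stood above both control arrays, by more than the spread within either group. The difference was 0.52 (SE 0.125, interval 0.20 to 0.83), with a limma p of 0.00802 unadjusted and 0.110 adjusted. Without the filter on dim probesets BCL2L11 passed, at 0.47 (adjusted p = 0.0444); with each array left out in turn it had 0.46 to 0.57 (adjusted p 0.126 to 0.540). A higher change was found in 5.59% of all genes tested. Its mean control level of 5.31 lay within the control range of the liver and neuron genes (4.07 to 5.71). The fibroblast markers LUM (0.80) and FAP (0.77) and the liver gene TAT (0.53) had larger differences than BCL2L11. The median difference was 0.22 for the fibroblast markers, 0.13 for the leukocyte markers and 0.15 for the liver and neuron genes. The part of these shifts in the BCL2L11 value was not tested.

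BBC3, which encodes PUMA, a p53-induced protein, had 5.79 on each mimic array, against 5.66 and 5.37 on the control arrays. Both mimic arrays were higher, but the control arrays differed by a similar amount, and the difference was 0.27 (SE 0.148, interval -0.10 to 0.64, limma adjusted p = 0.380). BID, which caspase-8 cleaves to link death receptors to mitochondria, had 7.65 and 7.74 on the mimic arrays, against 7.88 and 7.87 on the control arrays. The mimic arrays were the lower ones, at -0.18 (SE 0.1197, interval -0.49 to 0.12, adjusted p = 0.456). BMF, whose protein is held at the cytoskeleton until stress frees it, had 5.84 and 5.65 on the mimic arrays, against 5.92 and 5.78 on the control arrays. Its groups overlapped, and the difference was -0.10 (SE 0.138, interval -0.45 to 0.25, adjusted p = 0.721).

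Differences for the 8 members other than PMAIP1 and BCL2L11 thus lay between -0.18 and 0.27, with adjusted p of 0.380 to 0.751. A missed threshold does not show that these levels were equal: the intervals still hold changes of -0.62 to 1.06 for BCL2, the widest, and of -0.44 to 0.15 for BAK1, the narrowest of the 8.

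**Figure D2:**
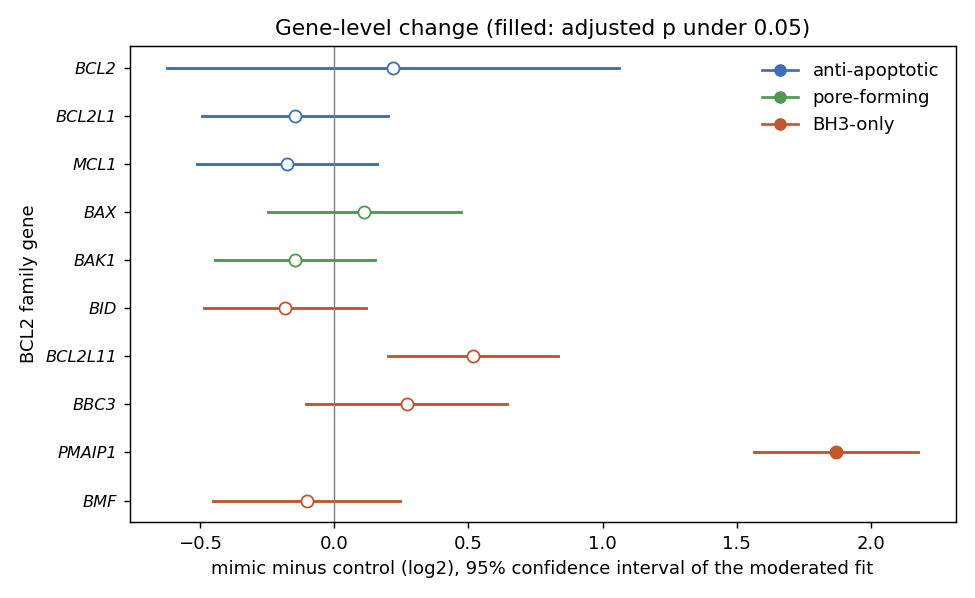
Mimic-minus-control difference (log2) of each family gene with the 95% confidence interval of the moderated fit, grouped by role in colour and filled where the adjusted p was under 0.05. The interval of PMAIP1 runs from 1.57 to 2.17 and that of BCL2L11 from 0.20 to 0.83, and the other 8 include 0.

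PMAIP1 was read by 7 probesets, and all 7 had the mimic arrays above the control arrays without overlap (21.0% of all probesets tested). Of the 6 past the filter, 3 passed when each probeset was tested alone with adjustment over all 174802. They were the only called ones of the family's 91, against 0.883% of all probesets called and 0.795% called higher. Probeset 3790712 had 8.87 and 8.85 on the mimic arrays, against 6.29 and 6.30 on the control arrays. This was its brightest probeset and the arrays of each group differed little, with a rise of 2.56 (SE 0.177, limma adjusted p = 0.00779).

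Probeset 3790710 had 7.63 and 7.83 on the mimic arrays, against 5.59 and 5.48 on the control arrays, and rose by 2.19 (SE 0.189, adjusted p = 0.0162). Probeset 3790709 had 6.57 and 7.13 on the mimic arrays, against 3.94 and 4.52 on the control arrays, and rose by 2.62 (SE 0.310, adjusted p = 0.0445). These calls depended on the arrays: without mimic replicate 1 or 2 no member probeset passed, and without control replicate 1 or 2 only 3790712 did. Probeset 3790709 also missed the threshold with quantile normalization (adjusted p = 0.0522), cyclic loess (0.0501) and robust hyperparameters (0.0518).

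The remaining 3 tested probesets of PMAIP1 were higher but did not pass. Probeset 3790711 had 6.38 and 7.02 on the mimic arrays, against 5.20 and 4.82 on the control arrays (difference 1.69, limma adjusted p = 0.113). Probeset 3790713 had 5.32 and 4.58 on the mimic arrays, against 3.75 and 3.58 on the control arrays (1.29, adjusted p = 0.180). The mimic arrays differed among themselves most on this dim probeset, which passed the filter only through its mimic arrays. Probeset 3790707 had 5.85 and 5.80 on the mimic arrays, against 4.87 and 5.06 on the control arrays, the smallest difference of the 6 at 0.86 (adjusted p = 0.168).

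Each probeset was also tested against the mean of the other kept probesets of its gene, to ask whether all parts of a transcript moved alike. Limma called 0 of the 91 member probesets and 0 (0.00%) of the 159950 tested. At an unadjusted p under 0.05 there were 9 of the members, against 8.33% of all. For PMAIP1 the probeset with the smallest rise, 3790707, was 1.21 below the rest on the log2 scale of change (relative change -1.21, SE 0.204, unadjusted p = 0.00128, adjusted p = 0.358), and 3790712 was 0.83 above (adjusted p = 0.449).

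**Figure D3:**
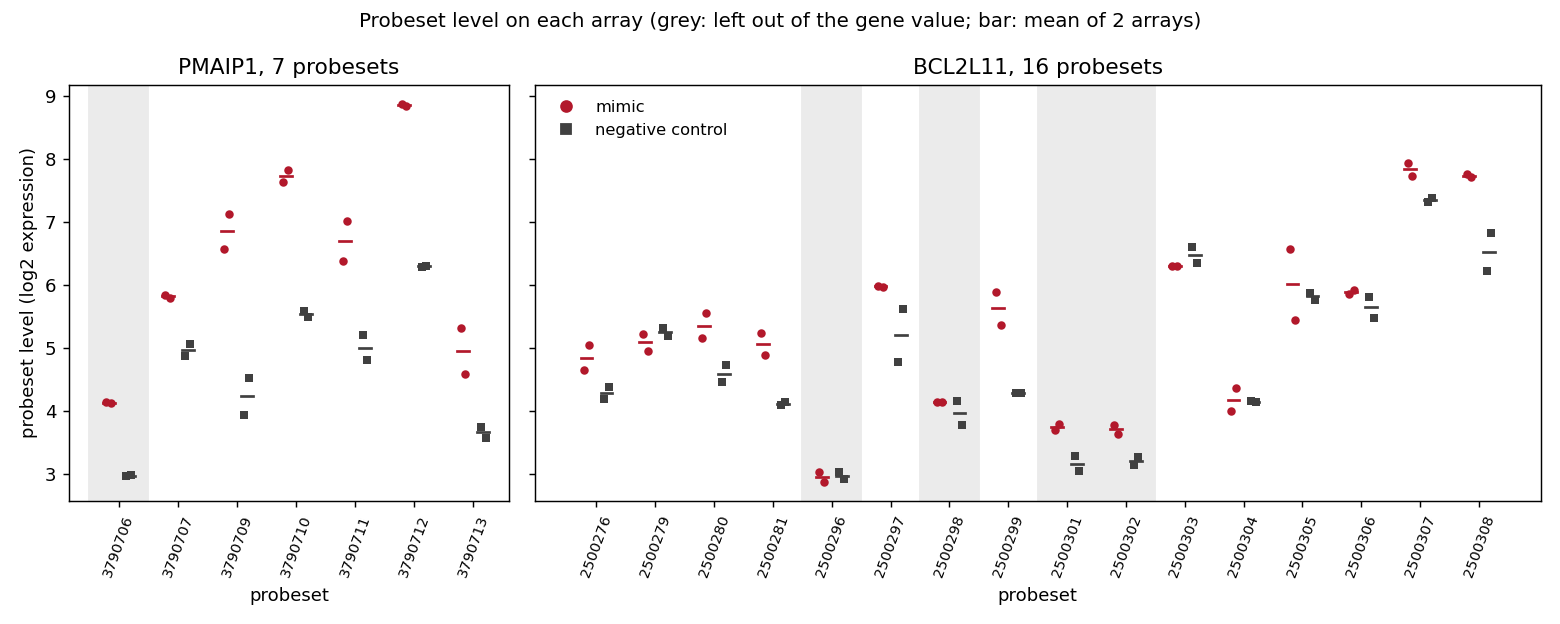
Level (log2 expression) of every probeset of PMAIP1 and BCL2L11 on each array, with mimic arrays (circles) left of control arrays (squares), bars at the means and grey bands on probesets left out by the filter. All 7 probesets of PMAIP1 are higher in mimic arrays, whereas BCL2L11 holds probesets with differences from -0.18 to 1.34.

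BCL2L11 was uneven in its values. Of its 12 tested probesets 10 had a difference above 0, 5 were higher at an unadjusted p under 0.05 and none passed adjustment. The largest difference was on probeset 2500299, with 5.89 and 5.37 on the mimic arrays, against 4.28 and 4.29 on the control arrays (1.34, limma adjusted p = 0.123). Probeset 2500308 followed with 7.76 and 7.71 on the mimic arrays, against 6.23 and 6.83 on the control arrays (1.21, adjusted p = 0.164). On both of these the groups stood clear of each other.

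The brightest probeset of BCL2L11, 2500307, had 7.94 and 7.74 on the mimic arrays, against 7.32 and 7.37 on the control arrays (0.49, limma adjusted p = 0.324). By contrast probeset 2500303 had 6.30 and 6.29 on the mimic arrays, against 6.60 and 6.35 on the control arrays, a difference of -0.18. Set against the rest of the gene, 2500299 had a relative change of 0.90 (adjusted p = 0.490) and 2500303 of -0.76 (adjusted p = 0.520), so unequal change was not called at this number of arrays. BIM is made in several splice forms, but the files do not pair these probesets with exons or forms. Probesets 2500308 and 2500303 were chosen after their values were seen.

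Over the family, 43 of the 91 tested probesets had a difference above 0 and 48 below, and 14 were higher and 2 lower at an unadjusted p under 0.05, against 6.35% and 8.81% of all probesets. Both mimic arrays lay above both control arrays on 21 of the 91 (21.0% of all probesets) and below them on 24 (26.8%). Of the 14 higher ones, 6 belonged to PMAIP1 and 5 to BCL2L11, with 1 each of BCL2, BAX and BBC3. Both of the lower ones belonged to BID. Its probeset 3951945 had 8.27 and 8.40 on the mimic arrays, against 9.18 and 9.57 on the control arrays (-1.04, limma adjusted p = 0.162, relative change -0.91 with adjusted p = 0.475), and passed with an intensity trend (adjusted p = 0.0380). The brightest probeset of BID, 3951952, had 10.23 and 9.90 on the mimic arrays, against 10.07 and 9.76 on the control arrays (0.15), so 2 parts of the same gene gave opposite signs.

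For MCL1 and BCL2L1, the single brightest probeset differed little between groups, while most others were below 0 with none called. The brightest of MCL1, 2434459, had 12.09 and 12.10 on the mimic arrays, against 12.21 and 12.11 on the control arrays, and 10 of its 11 probesets had a difference below 0. The one farthest from the rest of MCL1, 2434469, had 8.02 and 8.15 on the mimic arrays, against 8.43 and 8.93 on the control arrays (-0.59, limma adjusted p = 0.342). For BCL2L1 all 9 differences lay between -0.35 and 0.11. Its brightest probeset, 3902522, had 11.70 and 11.85 on the mimic arrays, against 11.69 and 11.77 on the control arrays, and the probeset farthest from the rest, 3902493, had a relative change of 0.29 (adjusted p = 0.730). No shift between parts of BCL2L1 was therefore called.

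In BCL2 the probeset farthest from the rest was 3811442, with 5.63 and 5.20 on the mimic arrays, against 4.67 and 3.79 on the control arrays (1.18, limma adjusted p = 0.250, relative change 1.20 with adjusted p = 0.415). Its brightest, 3811441, had 6.84 and 6.16 on the mimic arrays, against 6.60 and 6.14 on the control arrays. The dimmer probeset 3811442 carried most of the gene's positive difference, since the other 4 lay between -0.43 and 0.13. The 12 BCL2 probesets left out had group means of at most 4.33.

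The pore-forming genes and the remaining BH3-only genes gave mixed values. For BAX the differences ran from -0.35 to 0.49, with 6 of 9 above 0. The brightest probeset, 3838075, was at -0.11 and the one farthest from the rest, 3838087, at -0.35. For BAK1 they ran from -0.53 to 0.24, with 0.00 on the brightest, 2950759, and -0.53 on 2950757 (limma adjusted p = 0.384). BBC3 had -0.03 on its brightest, 3866440, and -0.05 on 3866445, the one farthest from the rest, within a range of -0.05 to 0.53. The other 3 of its 5 tested probesets lay above 0, and the median of the 5 was 0.38. BMF had -0.14 on its brightest, 3619237, and 0.19 on 3619238, within -0.26 to 0.19. None of these probesets was called, alone or against the rest of its gene.

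**Figure D4:**
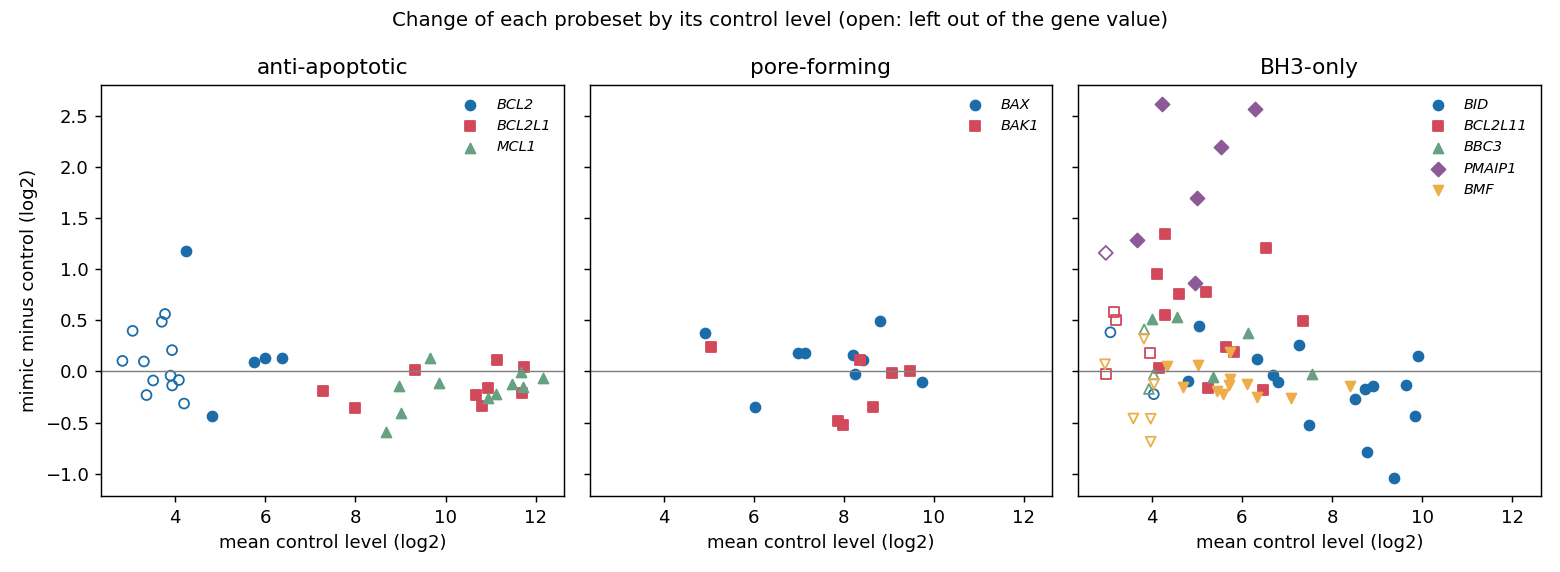
Mimic-minus-control difference (log2) of each of the 119 probesets against its mean control level (log2), in 1 panel per role, with open symbols for probesets left out by the filter. Tested probesets of PMAIP1 lie between 0.86 and 2.62, and those of MCL1 between -0.59 and 0.14.

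The genes whose pattern over the 4 arrays lay closest to PMAIP1, by Euclidean distance after centring each gene on its mean, were B2M (distance 0.055), TRIM29 (0.076) and IRF7 (0.106), out of 15718 genes. B2M had 12.12 and 12.19 on the mimic arrays, against 10.30 and 10.36 on the control arrays, a rise of 1.82. TRIM29 rose by 1.81 and IRF7 by 1.84. With 4 arrays in 2 groups this measure finds genes with a like difference between groups.

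Other BCL2-related genes were taken from a list of 24 names, of which 23 were tested. This list too was chosen with earlier results known, so its counts are not an independent test. Limma called 0 of the 23; at an unadjusted p under 0.05, 1 was higher (7.65% of all genes) and 5 were lower (12.8%), and the list median was 0.05. BNIP3L, a mitophagy receptor, had 8.61 and 8.35 on the mimic arrays, against 9.28 and 9.10 on the control arrays (-0.71, adjusted p = 0.0916). Its relative BNIP3, a hypoxia-induced receptor of the same kind, had 11.20 and 11.19 on the mimic arrays, against 10.45 and 10.68 on the control arrays (0.63, adjusted p = 0.0935). The pair had opposite signs, and each passed without the filter and with an intensity trend. BNIP3 was read by 1 kept probeset and BNIP3L by 12, and BNIP3L had -0.26 (adjusted p = 0.456) on its brightest probeset. BCL2L12 had -0.49 (adjusted p = 0.126), and BAD, a BH3-only protein silenced by survival kinases, had -0.51 (adjusted p = 0.149), and passed narrowly without the filter.

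The list of 30 upstream regulators held transcription factors known to drive genes of the family and enzymes of MCL1 protein turnover, and 28 were tested. By limma 4 rose and none fell, and at an unadjusted p under 0.05 there were 10 higher and 2 lower; the shares over all genes were 1.52% and 0.789% called, and 7.65% and 12.8% unadjusted. The list median was 0.12. This list was chosen with earlier results of these data known, so its counts are not an independent test against all genes. IRF1, a factor of the interferon response, had 8.27 and 8.31 on the mimic arrays, against 5.03 and 4.83 on the control arrays, and rose by 3.36 (SE 0.134, adjusted p = 0.000427). IRF9 rose by 2.23 (adjusted p = 0.00118) and STAT2 by 2.00 (adjusted p = 0.00274), partners in the complex that binds interferon-stimulated response elements. IRF7, which amplifies interferon production, rose by 1.84 (adjusted p = 0.00267), but had 0.53 (adjusted p = 0.321) on its brightest probeset. IRF3, a further interferon factor of the list, had -0.16 (adjusted p = 0.6195). Among the enzymes of MCL1 turnover HUWE1, USP9X and FBXW7 had -0.27, -0.04 and 0.11 and did not pass. DDIT3, the stress factor CHOP, had 1.03 (adjusted p = 0.0604). ATF4 of the same list went the other way, at -0.33 (adjusted p = 0.235), with both mimic arrays below both control arrays. ATF3 had 0.31 (adjusted p = 0.290). Further regulators higher at an unadjusted limma p under 0.05 were STAT3 (0.84, adjusted p = 0.0501), TP63 (0.78, 0.0671), NFKB1 (0.69, 0.0699), MYC (0.53, 0.177) and JUN (0.39, 0.172). E2F1 was lower (-0.62, adjusted p = 0.106). IRF3, DDIT3, ATF4, ATF3, the 3 enzymes and these further regulators were chosen after their values were seen.

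**Figure D5:**
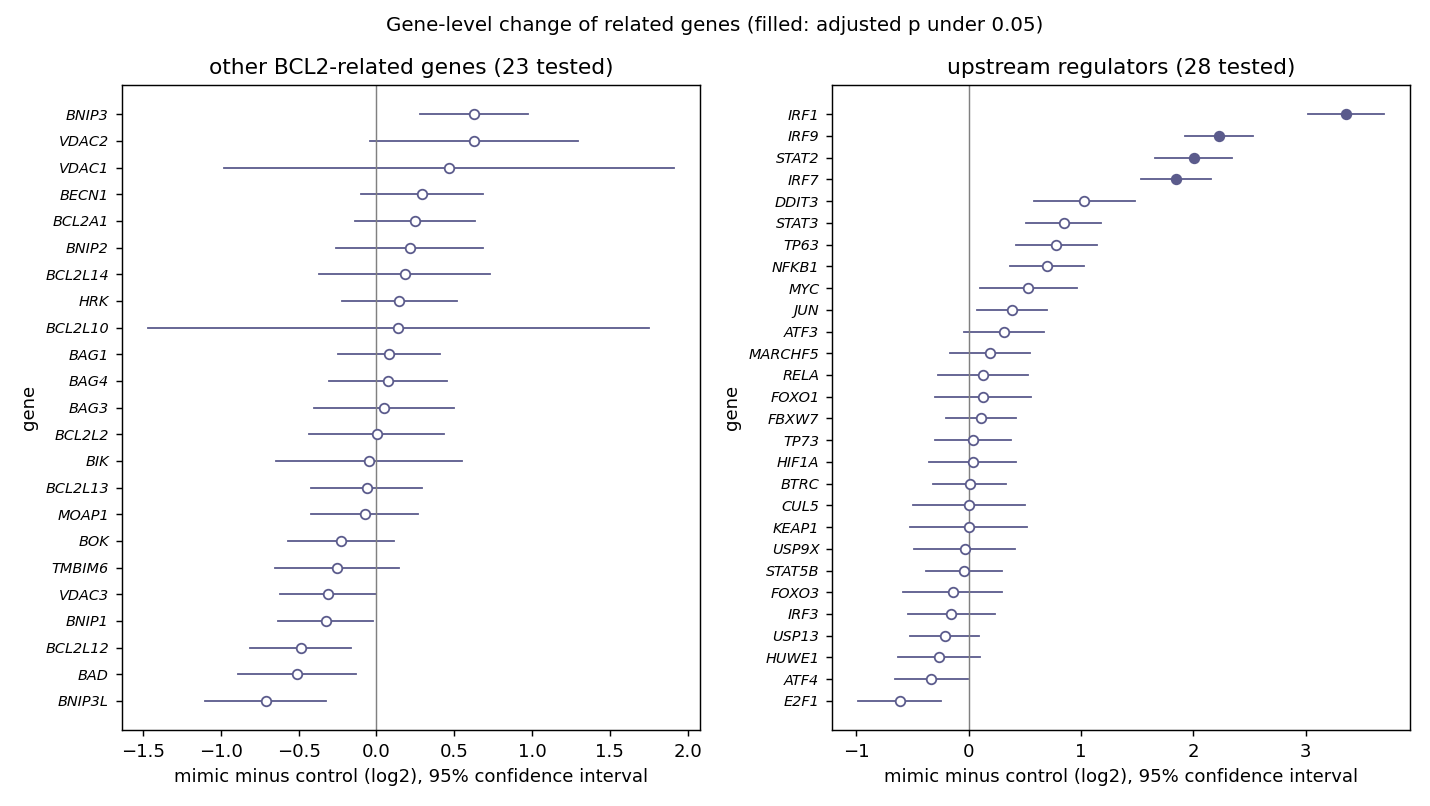
Mimic-minus-control difference (log2) with its 95% confidence interval for the 23 other BCL2-related genes and the 28 upstream regulators tested, each sorted by difference and filled where the adjusted p was under 0.05. The filled genes are IRF1, IRF9, STAT2 and IRF7, and no gene of the left panel is filled.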

How the data were processed

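As deposited by the authors, each array has a single log2 value for every exon-level probeset. Per the submitters' processing notes, RMA, Partek and the build hg18 were used, with no versions or order of steps; distributions were not identical across arrays, with interquartile ranges of 4.18 and 4.32 on mimic arrays and 4.25 and 4.52 on control arrays. No detection calls were used, and the small number of arrays limits precision. Probesets were named from the platform annotation at GEO, updated through RefSeq symbols: 216780 probesets had 1 symbol, 2335 several and 13364 none. Symbols of several genes named nothing. The deposited values carry no coordinates; promoter coordinates are those of RefSeq.

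Probesets at or above the 25th percentile (174802) were averaged per gene. Groups were compared two-sidedly by lmFit and eBayes of limma 3.58.1, run in R 4.3.3, with 2 residual and, prior included, 5.29 degrees of freedom. The same fit ran on single probesets and on each probeset minus the others of its gene (at least 3 kept). All 3 fits were tested on simulated data. Plots used matplotlib 3.10.9 in Python 3.11.15. The members and lists were chosen with earlier results of these data known. Named genes are the members, the genes past the threshold and the 4 with the smallest p of each further list, and the 3 closest patterns; named probesets are those of PMAIP1, and the brightest and the one farthest from the rest of every other member. Alternatives were a replicate block, 3 normalizations, 2 filters, an intensity trend, robust hyperparameters, each array left out, and the median or brightest probeset. Protein sequences were not analysed here.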

Additional observations from a re-analysis of the deposited data

Results flagged for a closer look

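A probeset of PMAIP1 that the filter on dim probesets left out, 3790706, showed a signal outside the gene value. It had 4.14 and 4.13 on the mimic arrays, against 2.97 and 2.99 on the control arrays, a difference of 1.16 that was not tested. Of the 28 member probesets left out, it was the 1 with a difference of at least 1 in which both mimic arrays lay above both control arrays; 9 in all had both above, 6 had both below and 13 overlapped.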

How the results depend on the processing

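PMAIP1 kept its direction and its side of the threshold under all 14 alternatives, and so did the lack of a call for the 9 other members, except that BCL2L11 passed without a filter (0.47, adjusted p = 0.0444), which made 2 members past the threshold. Signs turned, with no call, for BCL2 (-0.16 without mimic replicate 1, -0.11 without control replicate 2, -0.30 with the median of probesets; range -0.16 to 0.60 with an array left out), BAX (-0.0202 without mimic replicate 2; range -0.0202 to 0.25) and, with the brightest probeset, BCL2L1 (0.0409), BAX (-0.11), BAK1 (0.00155), BID (0.15) and BBC3 (-0.0252); the cause was not tested. Member probesets past the threshold, 3, were 0 to 1 with an array left out, 2 with quantile normalization, cyclic loess, robust hyperparameters or a filter at the table median, and 4 with an intensity trend, where BID 3951945 passed as lower (-1.04). Genes past the threshold, 363, were 172 to 1691 with an array left out (1691 without control replicate 1), 1433 without a filter, 122 with the brightest probeset and 1594 with an intensity trend. Other BCL2-related genes past the threshold, 0, were 0 to 3 with an array left out, 3 without a filter and 2 with an intensity trend. Upstream regulators, 4, were 7 with quantile or cyclic loess normalization, 9 without a filter, 8 with an intensity trend and 4 to 9 with an array left out. Probesets called against the rest of their gene, 0 in all, were 10 without a filter and 17 with an intensity trend, none of them of a member. The median of all genes shifted by at most 0.03 with other scalings. The series' design text calls mimic and control samples paired without saying what a pair shares; same-numbered arrays deviated together (r = 0.435 over genes). With the replicate block 498 genes passed, 1 member (PMAIP1, adjusted p = 0.0104) and 3 member probesets, and no call of a member changed; BCL2 had an SE of 0.0835 with the block, against 0.333, and an adjusted p of 0.177. Levels near those of the liver and neuron genes limit BCL2, BBC3, BCL2L11, BMF and the control level of PMAIP1 most.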
